A study of Homo sapiens with 6 samples.

Results

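The enzymes that make fatty acids from acetyl-CoA, lengthen them and introduce double bonds were examined in HepG2 cells after knockdown of DGUOK. The gene set was chosen by symbol and held 10 of the 34036 genes in the count table, namely ACLY, ACSS2, ACACA, ACACB, FASN, ELOVL6, ELOVL5, SCD, FADS2 and FADS1. HepG2 is a human liver cancer cell line. RNA was sequenced 48 h after transfection from 3 libraries of cells given non-targeting siRNA (siCON) and 3 libraries of cells given an siRNA pool against DGUOK (siDGk). DGUOK encodes the mitochondrial deoxyguanosine kinase. The labels call the libraries of a group independent biological replicates without saying whether they were separate cultures or transfections, so p-values measure only the spread between these libraries of 1 cell line. Library totals were 19065684, 18915508 and 10527216 counts in siCON replicates 1, 2 and 3, and 18613138, 15978314 and 21334876 counts in siDGk replicates 1, 2 and 3. DGUOK was at 54.4, 53.1 and 48.2 CPM with siCON and at 9.08, 10.5 and 6.72 CPM with siDGk (replicates 1, 2 and 3 in turn; log2FC = −2.57, SE 0.19, edgeR padj = 1.64e-08). CPM divide counts by the size of the library, with sizes adjusted by the TMM method.

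Hepatocytes build fatty acids in the cytosol from acetyl-CoA, which ATP citrate lyase releases from exported citrate and acetyl-CoA synthetase forms from acetate. Acetyl-CoA carboxylase makes malonyl-CoA, fatty acid synthase joins these units into palmitate with NADPH as reductant, and elongases and desaturases then convert palmitate and dietary fatty acids into longer and less saturated chains. In liver the pathway is known for its control by the transcription factors SREBP-1c and ChREBP and for feeding triglyceride synthesis.

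Single libraries stood apart from the others of their group in transcripts of other cell types. The 173 genes annotated as T cell receptor segments held 109877 counts in siDGk replicate 1, which was 0.590% of that library. The other siDGk libraries held 1333 (replicate 2) and 73 (replicate 3) of such counts, and the siCON libraries 16, 37 and 33. These genes were chosen after their values were seen. The summed level of 4 endothelial markers was 58.5 CPM in siDGk replicate 2, with VWF most abundant at 31.4 CPM, and between 1.38 and 4.49 CPM in the other libraries. The lymphocyte and myeloid list of 6 genes was led by LYZ in every library, at 1610 to 1896 CPM, and its other genes summed to 11.7 CPM in siDGk replicate 2 and to between 4.11 and 7.14 CPM elsewhere. ITGAM was at 0 counts in siCON replicate 3 and in all 3 siDGk replicates, CD14 in siDGk replicate 2 and CD3E in siDGk replicate 3. The 6 fibroblast and stellate markers summed to 12.1, 15.0 and 10.3 CPM with siCON and to 42.6, 54.8 and 22.1 CPM with siDGk (replicates 1, 2 and 3 in turn). COL1A1 was most abundant in siDGk libraries and called higher (log2FC = 4.04), whereas PDGFRB, most abundant in siCON libraries at 10.9, 13.0 and 9.25 CPM, was called lower (log2FC = −1.02, edgeR padj = 0.0332). DCN was at 0 counts in every siCON library and in siDGk replicate 3. All 10 hepatocyte markers had counts in every library. Their summed level was 59760, 55350 and 53330 CPM with siCON and 33000, 28830 and 27390 CPM with siDGk (replicates 1, 2 and 3 in turn). In edgeR's test 9 of these 10 markers were called lower and 0 higher, with SERPINA1 at a log2FC of 0.02 (0 higher at an unadjusted p under 0.05, and 0 with DESeq2). Of all genes tested, 6.68% were called lower and 7.42% higher. In bulk libraries fewer cells of a type and less RNA per cell cannot be told apart, and the part of these differences in the results was not tested.

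All 10 genes passed the filter on low counts, and 6 of the 10 were called lower in siDGk cells. A call required an adjusted p (padj) under 0.05 and an absolute log2FC above 0.5 in edgeR's quasi-likelihood test, and 6.68% of the 14476 genes tested were called lower. ACSS2, FADS2, FASN, ELOVL6, ACACA and SCD made up the 6. None of the 10 was called higher by edgeR or by DESeq2 (0 each, against 7.42% of all genes tested in edgeR), and 1, ELOVL5, was higher at an unadjusted p under 0.05. Either direction together, 14.1% of all genes tested were called. At the adjusted p alone, 7 of the 10 were lower and 1 was higher, where 9.35% of all genes were lower and 10.3% were higher (19.7% in all). The siDGk libraries all lay below the siCON libraries for 8 of the 10 genes and all above them for 1, against 17.3% and 18.7% of the genes tested, so that 9 of the 10 did not overlap where 36.0% of all genes did not. The median log2FC of the 10 genes was −0.56, beside 0.02 for all genes tested. Without siDGk replicate 1 the same count of 6 genes was called lower, and without siDGk replicate 2 it was 5. With the T cell receptor genes left out, an alternative chosen after seeing the data, it was 6. That step removes only those genes and barely alters the fit of the 10. It therefore does not bear on transcripts of other cell types in the libraries.

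**Figure D1:**
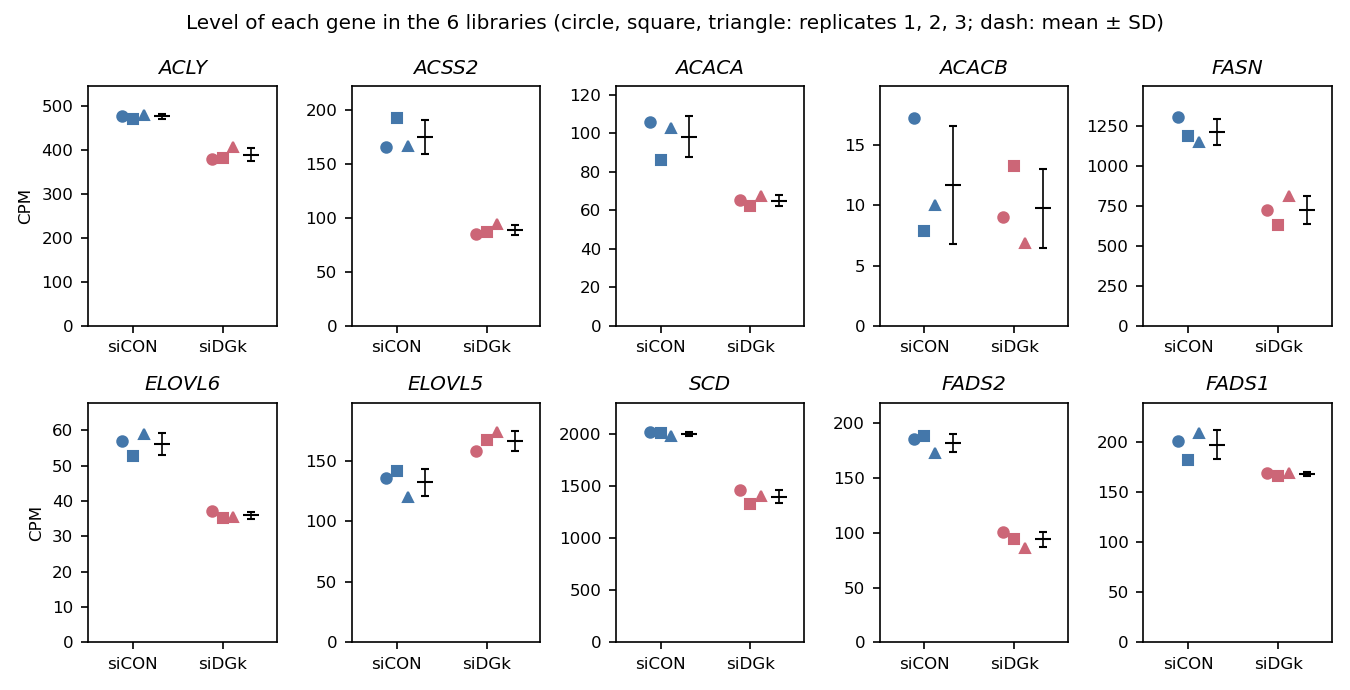
CPM of each of the 10 genes in the 3 siCON (blue) and 3 siDGk (red) libraries, with replicates 1, 2 and 3 as circles, squares and triangles and the mean ± SD as a black dash with bars. The siDGk points lie below the siCON points for 8 genes, above them for ELOVL5, and among them for ACACB.

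The promoter sequences of the genes were compared, since most of the genes moved in the same direction. RefSeq promoters of 300 bases on GRCh38.p14, from 250 before to 50 after a start site, were matched by symbol for 9 of the 10 genes and numbered 15, as some genes have several starts. The gene with no match was FASN. Both strands were searched for the CCAAT box (CCAAT), the GC box (GGGCGG), the sterol regulatory element (TCACNCCAC) and the E-box CACGTG. None of these motifs contains another. The CCAAT box occurred in at least 1 promoter of 7 of the 9 genes, beside 39.7% of all 27303 genes in the table. It occurred in 9 of the 15 promoters of these genes, beside 34.6% of the 35114 promoters of the table, and genes with several promoters have more chances to hold it. ELOVL6 and FADS1 were the 2 without it in these windows. The GC box occurred for 8 of the 9 genes, beside 48.3% of all genes in the table, and in 11 of the 15 promoters, beside 45% of promoters. The sterol regulatory element in these letters occurred for 0 of the 9, beside 1.39% of genes and 1.13% of promoters. CACGTG occurred for 1 gene, ELOVL5, beside 8.78% of genes and 7.26% of promoters. A match is a description of these letters only. Promoters with the CCAAT box are given for SCD, ACSS2 and FADS2, of the called genes that hold it (ACACA is another), and for ELOVL5, the 1 gene of the 10 with a higher level at the adjusted p alone, each 5′ to 3′ along its gene. The second ACSS2 promoter and the first FADS2 promoter hold no CCAAT box. Capitals mark CCAAT or its reverse complement ATTGG and, in ELOVL5, CACGTG. The SCD promoter lies at chr10:100346983-100347282 on the plus strand, the first ACSS2 promoter at chr20:34874739-34875038 on the plus strand, the second FADS2 promoter at chr11:61816154-61816453 on the plus strand and the ELOVL5 promoter at chr6:53348901-53349200 on the minus strand.
SCD promoter: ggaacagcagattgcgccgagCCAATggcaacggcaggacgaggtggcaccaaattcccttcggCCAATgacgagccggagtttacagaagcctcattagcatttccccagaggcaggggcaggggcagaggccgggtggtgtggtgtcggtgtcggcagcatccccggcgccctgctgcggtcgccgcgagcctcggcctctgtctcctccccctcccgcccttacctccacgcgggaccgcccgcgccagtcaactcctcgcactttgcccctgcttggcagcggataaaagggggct
ACSS2 promoter 1: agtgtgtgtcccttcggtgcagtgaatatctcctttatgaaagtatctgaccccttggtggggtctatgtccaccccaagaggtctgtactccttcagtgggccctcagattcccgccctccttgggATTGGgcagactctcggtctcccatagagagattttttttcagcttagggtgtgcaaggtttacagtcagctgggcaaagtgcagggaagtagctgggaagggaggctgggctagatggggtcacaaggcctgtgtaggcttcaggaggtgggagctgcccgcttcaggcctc
FADS2 promoter 2: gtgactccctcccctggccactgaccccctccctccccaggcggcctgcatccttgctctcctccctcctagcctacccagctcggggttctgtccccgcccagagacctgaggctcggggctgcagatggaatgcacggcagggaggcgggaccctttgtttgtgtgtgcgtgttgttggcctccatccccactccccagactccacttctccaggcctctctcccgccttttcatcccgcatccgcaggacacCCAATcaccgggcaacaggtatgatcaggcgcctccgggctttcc
ELOVL5 promoter: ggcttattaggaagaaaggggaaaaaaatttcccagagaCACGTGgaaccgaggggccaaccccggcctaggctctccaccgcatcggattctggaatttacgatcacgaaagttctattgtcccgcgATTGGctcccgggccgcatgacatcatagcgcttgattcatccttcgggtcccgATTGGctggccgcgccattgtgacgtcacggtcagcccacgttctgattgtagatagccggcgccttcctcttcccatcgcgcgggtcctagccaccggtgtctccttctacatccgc
Counted from the start site, the CCAAT boxes begin at −229 and −186 in SCD, at −122 and −68 in ELOVL5, at −123 in the first ACSS2 promoter and at 6 in the second FADS2 promoter. CACGTG begins at −211 in ELOVL5.

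The genes that supply cytosolic acetyl-CoA differed in size of change. ACSS2 (ENSG00000131069.19, chr20:34872146-34927962 of GRCh38 in Gencode 44) encodes cytosolic acetyl-CoA synthetase, which uses acetate. Its level was 166, 193 and 166 CPM with siCON and 85.6, 86.8 and 94.0 CPM with siDGk (replicates 1, 2 and 3 in turn). The groups did not overlap, and the level in siDGk cells was 50.7% of that in siCON cells. The log2FC was −0.98 (SE 0.10, edgeR padj = 6.08e-07), close to that of FADS2 (−0.95). ACLY (ENSG00000131473.16, chr17:41866917-41930542) encodes ATP citrate lyase, which uses citrate. Its level was 479, 471 and 481 CPM with siCON and 379, 383 and 407 CPM with siDGk (replicates 1, 2 and 3 in turn). Again the groups did not overlap, although the distance between them was smaller than for ACSS2. The log2FC of −0.29 (SE 0.07, edgeR padj = 0.00661) passed the adjusted p and missed the fold threshold, and without siCON replicate 3 padj in edgeR's test was 0.0517. The 95% interval with all libraries, −0.44 to −0.14, lay within the threshold of 0.5.

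Malonyl-CoA is made by acetyl-CoA carboxylases from the genes ACACA and ACACB, of which the first encodes the cytosolic enzyme used in synthesis and the second an enzyme at the mitochondrial surface, known for restraining fatty acid import. ACACA (ENSG00000278540.4, chr17:37084992-37406836) was at 106, 86.2 and 103 CPM with siCON and at 65.3, 62.1 and 67.6 CPM with siDGk (replicates 1, 2 and 3 in turn). The lowest siCON library, replicate 2, was still above the highest siDGk library. The level in siDGk cells was 66.1% of that in siCON cells (edgeR padj = 7.56e-04, 95% interval of the log2FC −0.83 to −0.36). ACACB (ENSG00000076555.15, chr12:109116587-109268226) was the least abundant of the 10, with 105 to 323 counts in a library. It was at 17.2, 7.89 and 10.0 CPM with siCON and at 9.08, 13.3 and 6.90 CPM with siDGk (replicates 1, 2 and 3 in turn). The groups overlapped, with siCON replicate 1 the highest of the 6 libraries and siDGk replicate 2 the next. ACACB had a log2FC of −0.27 with a 95% interval from −0.96 to 0.41 (edgeR padj = 0.650), which holds both 0 and the log2FC of ACACA. Its sign turned without siCON replicate 1, to 0.13.

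FASN encodes fatty acid synthase, the multifunctional enzyme that makes palmitate. The gene (ENSG00000169710.8) spans chr17:82078338-82098294. FASN was at 1303, 1182 and 1145 CPM with siCON and at 724, 632 and 809 CPM with siDGk (replicates 1, 2 and 3 in turn). The groups did not overlap, with siDGk replicate 2 the lowest and siDGk replicate 3 the highest of the siDGk libraries. The level in siDGk cells was 59.7% of that in siCON cells (95% interval of the log2FC −0.93 to −0.56, edgeR padj = 4.25e-06). Without siDGk replicate 2 the log2FC was −0.66.

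The elongase genes ELOVL6 and ELOVL5 had log2FC of opposite sign. ELOVL6 (ENSG00000170522.9, chr4:110045846-110199199) encodes the elongase that extends palmitate to stearate. It was at 56.9, 52.8 and 58.9 CPM with siCON and at 37.0, 35.2 and 35.5 CPM with siDGk (replicates 1, 2 and 3 in turn). The siDGk libraries lay close together, with an SD of 0.964 CPM beside 3.14 CPM in siCON (n = 3 each), and below every siCON library. ELOVL6 fell by 0.64 on the log2 scale (SE 0.13, edgeR padj = 0.00149). ELOVL5 (ENSG00000012660.13, chr6:53267398-53349179) encodes an elongase of polyunsaturated fatty acids. It was at 136, 141 and 120 CPM with siCON and at 158, 167 and 174 CPM with siDGk (replicates 1, 2 and 3 in turn). Every siDGk library was above every siCON library, the reverse of the other 8 genes whose groups did not overlap. The log2FC of 0.33 (SE 0.09, edgeR padj = 0.0152) passed the adjusted p and missed the fold threshold, with a 95% interval from 0.14 to 0.52. With 1 library left out the log2FC of ELOVL5 ran from 0.26 to 0.38, and edgeR padj was above 0.05 without siCON replicate 3 (0.108) and without siDGk replicate 3 (0.0651).

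Of the desaturase genes, SCD and FADS2 were called lower and FADS1 was not called. SCD (ENSG00000099194.5, chr10:100347233-100364826) encodes stearoyl-CoA desaturase, which introduces the first double bond into stearate and palmitate. SCD was at 2023, 2009 and 1986 CPM with siCON and at 1461, 1334 and 1403 CPM with siDGk (replicates 1, 2 and 3 in turn). The groups did not overlap, and the siCON libraries lay close together, with an SD of 18.6 CPM beside 63.4 CPM in siDGk (n = 3 each). The level in siDGk cells was 69.8% of that in siCON cells (log2FC = −0.52, SE 0.07, edgeR padj = 1.17e-05). This lies at the edge of the fold threshold, and without siDGk replicate 2 the log2FC of −0.48 ended the call while padj was 1.35e-04 in edgeR's test. SCD has a processed pseudogene, and reads that align equally well to both are left out by the counting defaults.

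FADS2 and FADS1 encode the delta-6 and delta-5 desaturases of polyunsaturated fatty acid synthesis and overlap on chromosome 11, where the span of FADS1 lies within that of FADS2. FADS2 (ENSG00000134824.13, chr11:61792980-61867354) was at 185, 188 and 172 CPM with siCON and at 101, 94.7 and 86.3 CPM with siDGk (replicates 1, 2 and 3 in turn). The groups did not overlap, and the level in siDGk cells was 51.6% of that in siCON cells (log2FC = −0.95, SE 0.09, edgeR padj = 5.61e-07). FADS1 (ENSG00000149485.18, chr11:61799627-61829318) was at 202, 182 and 210 CPM with siCON and at 169, 166 and 169 CPM with siDGk (replicates 1, 2 and 3 in turn). Its groups did not overlap either, but the lowest siCON library was near the siDGk libraries. The log2FC of FADS1 was −0.23 (SE 0.08, edgeR padj = 0.0610), which missed the adjusted p, with an interval from −0.41 to −0.06. Over the alternatives that kept all libraries, padj of FADS1 ran from 0.0323 in DESeq2 to 0.139 in edgeR without a count filter. The genes are transcribed in opposite directions, and the RefSeq start of FADS1 lies 800 and 599 bases from the starts of FADS2. In Gencode 44, 490 exon bases are shared by FADS1 and FADS2, and 5.57% of the exon bases of FADS1 and 5.11% of those of FADS2 are shared with any other gene. The counts were made with an older release and without strand, in which reads that overlap several genes are left out, so both counts are uncertain to that extent. Exon bases shared with other genes made up 3.00% for ACLY and 3.30% for ELOVL6, and 0 for the other 6 genes.

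**Figure D2:**
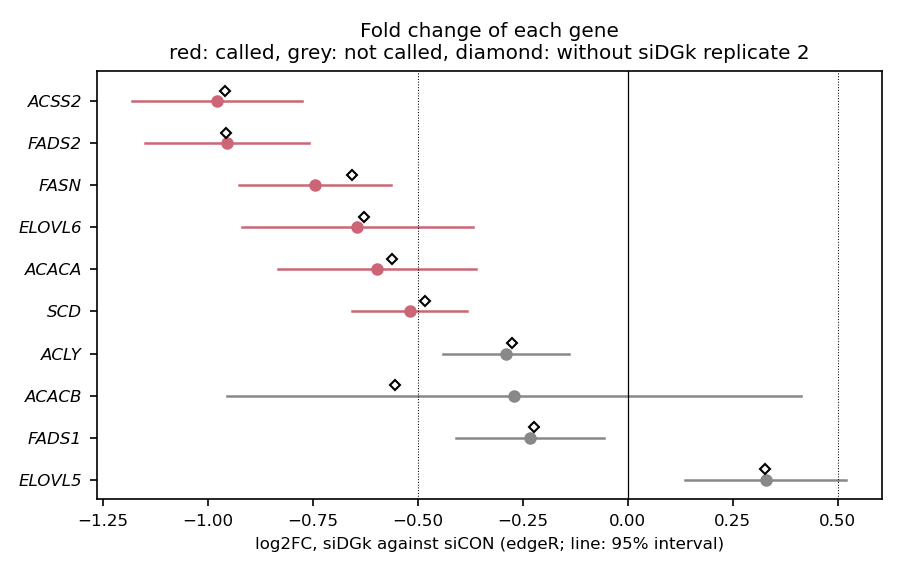
log2FC of each gene in siDGk against siCON cells from edgeR (point) with its 95% interval (line), red for called genes and grey for the others, and the log2FC without siDGk replicate 2 (open diamond). Dotted lines mark the fold threshold of 0.5, and SCD is the called gene whose diamond lies inside it, at −0.48.

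The levels of the genes were compared per kilobase of exon, since longer genes collect more reads. In siCON cells SCD stood first at 382 ± 3.55 CPM per kilobase (SD, n = 3), followed by FASN at 130 ± 8.88 and ACLY at 91.5 ± 1.04. SCD alone accounted for 52.8% of the summed level per kilobase of the 10 genes in siCON and for 51.8% in siDGk cells. ELOVL5 and ACSS2 were next in siCON cells, at 34.7 ± 2.92 and 33.4 ± 2.97 CPM per kilobase (SD, n = 3). Their libraries overlapped in siCON cells and did not in siDGk cells, where ELOVL5 was at 43.6 ± 2.07 and ACSS2 at 16.9 ± 0.872. FADS1, at 19.3 ± 1.38, stood above FADS2, at 17.2 ± 0.784, in siCON cells. In siCON replicate 2 these genes were nearly level, at 17.82 (FADS1) and 17.79 (FADS2), so their order there depends on the lengths used. In siDGk cells FADS1 was at 16.5 ± 0.165 and its libraries overlapped those of ACSS2, whereas FADS2 was at 8.89 ± 0.678 (SD, n = 3). ELOVL6 and ACACA, at 7.72 ± 0.432 and 7.55 ± 0.815 in siCON, overlapped in both groups, and FASN and ACLY overlapped in siDGk cells, at 77.4 ± 9.49 and 74.8 ± 2.90. ACACB was last in both groups, at 0.807 ± 0.338 in siCON and 0.672 ± 0.224 in siDGk cells. With the longest transcript as the length, ACSS2 took the fourth place in siCON cells at 59.8 CPM per kilobase, ahead of FADS1 at 45.3 and ELOVL5 at 42.9, while SCD remained first. By this length FADS2 was at 35.8 and ACACB at 1.25 in siCON cells, and in siDGk cells ACLY (90.2) stood above FASN (85.3) and FADS1 (38.6) above ACSS2 (30.4). Summed over the 10 genes, the level was 4673, 4513 and 4452 CPM with siCON and 3189, 2975 and 3252 CPM with siDGk (replicates 1, 2 and 3 in turn). The summed mean in siDGk cells was 69.0% of that in siCON cells, and no siDGk library reached a siCON library. Among the siDGk libraries, replicate 2 was the lowest for 5 of the 10 genes and the highest for 1, ACACB.

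**Figure D3:**
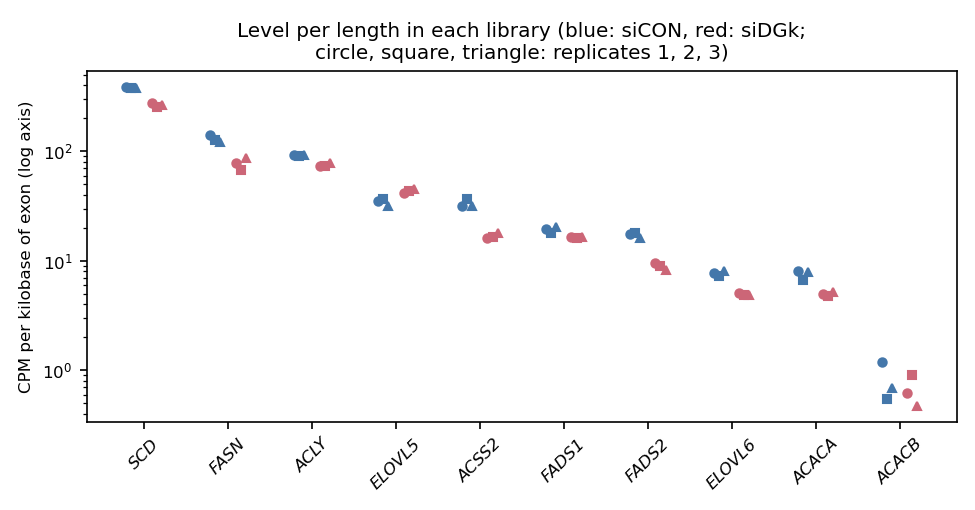
CPM per kilobase of exon on a log axis for each gene in the siCON (blue) and siDGk (red) libraries, with genes in the order of their siCON mean and replicates 1, 2 and 3 as circles, squares and triangles. SCD is highest and ACACB lowest in both groups.

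Ratios of counts within a library, which do not depend on scaling between libraries, were compared for 5 pairs of genes. With 3 libraries against 3, the exact two-sided permutation test cannot give a p under 0.10, so no ratio could pass 0.05. The log2 ratio of ELOVL5 to ELOVL6 was 1.25, 1.42 and 1.02 in siCON replicates 1, 2 and 3 and 2.09, 2.25 and 2.29 in siDGk replicates 1, 2 and 3. The groups did not overlap, and the mean ratio was higher in siDGk cells by 0.98 on the log2 scale (exact permutation p = 0.10, 0.12 after Benjamini-Hochberg adjustment over the 5 pairs). For FADS1 to FADS2 the log2 ratio was 0.13, −0.04 and 0.28 in the siCON replicates and 0.75, 0.81 and 0.97 in the siDGk replicates. Counts of these genes were thus nearly level in siCON cells, whereas FADS1 exceeded FADS2 in each siDGk library. The difference was 0.72 (exact permutation p = 0.10, adjusted 0.12). For ACLY to ACSS2 the log2 ratio was 1.53, 1.29 and 1.53 in siCON and 2.15, 2.14 and 2.11 in siDGk replicates 1, 2 and 3. The siDGk values had an SD of 0.02 on the log2 scale, and the difference of 0.68 exceeded the spread in either group (exact permutation p = 0.10, adjusted 0.12). The log2 ratio of SCD to FASN was 0.23 higher in siDGk cells (exact permutation p = 0.10, adjusted 0.12). Its groups did not overlap, although siCON replicate 3 and siDGk replicate 3 differed only beyond the second decimal. The log2 ratio of ACACA to ACACB overlapped between groups and differed by −0.36 (exact permutation p = 0.50, adjusted 0.50). Without siDGk replicate 2 this difference was −0.07, and without siCON replicate 1 it was −0.62.

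**Figure D4:**
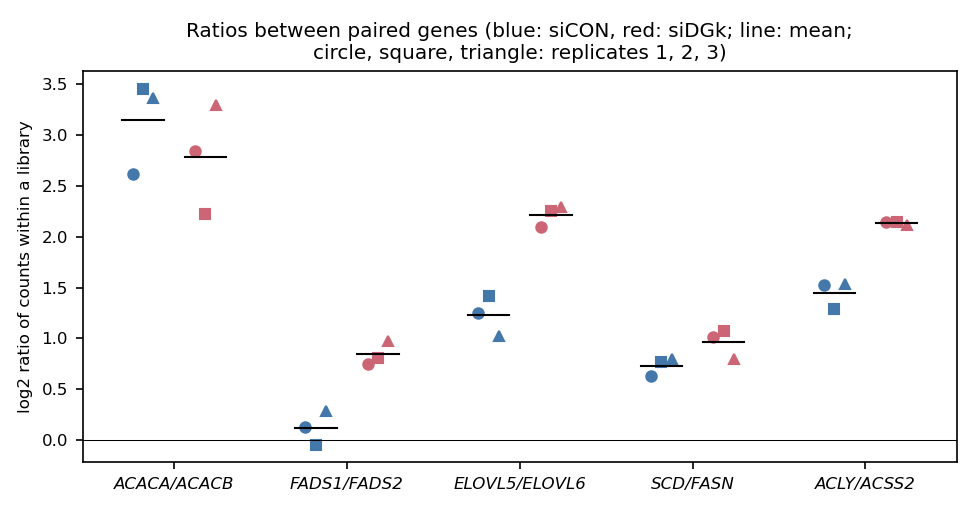
log2 ratio of the counts of paired genes within each library, siCON in blue and siDGk in red, with replicates 1, 2 and 3 as circles, squares and triangles and the group mean as a line. The siDGk libraries lie above the siCON libraries for FADS1/FADS2, ELOVL5/ELOVL6, ACLY/ACSS2 and, narrowly in replicate 3, SCD/FASN, and overlap them for ACACA/ACACB.

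Genes that act around the 10 enzymes were taken from lists, and each list is given by its counts and median. Beside these counts, 14.1% of all 14476 genes tested were called, 6.68% lower and 7.42% higher. Of 15 transcriptional regulators of the pathway, 14 were tested, with 3 called lower and 2 higher in edgeR and a median log2FC of −0.03. MLXIPL, which encodes ChREBP, fell from 44.6 ± 2.94 to 25.7 ± 5.39 CPM (SD, n = 3; log2FC = −0.79, edgeR padj = 0.00246), while its partner MLX was higher (0.56). SCAP (−0.64), the escort of SREBP precursors, was lower, and USF1 was higher (0.61). SREBF1, which encodes SREBP-1, was at 106, 136 and 122 CPM with siCON and at 96.0, 106 and 105 CPM with siDGk (replicates 1, 2 and 3 in turn). These values differed without overlap but missed the adjusted p (log2FC = −0.25, edgeR padj = 0.111). SREBF2 (−0.26) and INSIG2 (0.32) passed the adjusted p alone, NR1H3 was at −0.05 and not called, and INSIG1 was at only 0.162 to 2.08 CPM. The list's count was 3 without siDGk replicate 3 or any 1 of the siCON replicates.

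For citrate export and NADPH supply, 1 of the 8 genes tested was called. The counts of the lists in this paragraph lie near or below the 14.1% called over all genes tested. They therefore give no result about those lists. SLC25A1, the citrate carrier that feeds ACLY, had a log2FC of −0.44 (edgeR padj = 0.00134) and missed the fold threshold, and ME1 had too few counts to test. The list's count was 2 without siDGk replicate 1. Among 12 tested genes for the control and maturation of acetyl-CoA carboxylase and FASN, 1 was called, the AMP-activated kinase subunit gene PRKAG1 (0.64). MID1IP1, which encodes an activator of acetyl-CoA carboxylase, was at −0.37 (edgeR padj = 0.0633), and the list's count was 2 without siCON replicate 1. Of 12 other elongation and desaturation genes tested, CYB5A (−0.94), the electron donor of desaturases, and ELOVL2 (−0.52) were called lower, and the list's count was 1 without siDGk replicate 3. None was called higher by edgeR or DESeq2 (0 each, 1 at an unadjusted p under 0.05). That gene, CYB5B, named after its values were seen, passed the adjusted p alone (log2FC = 0.44, edgeR padj = 4.7e-04). The elongation cycle enzymes HSD17B12 (−0.42, adjusted p alone) and TECR (−0.24, not past the adjusted p) were not called. In the separate mitochondrial pathway 1 of 7 genes was called, HSD17B8 (−1.05), and 0 without siCON replicate 1 or siDGk replicate 1.

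Downstream, 9 of 16 genes for acyl-CoA activation and glycerolipid assembly were called, 5 lower and 4 higher, with a median log2FC of −0.30. Over all genes tested, 6.68% were called lower and 7.42% higher, which also stands beside the counts below. GPAM, a mitochondrial glycerol-3-phosphate acyltransferase, fell by 1.23 on the log2 scale and GPAT3 of the endoplasmic reticulum rose by 1.28. ACSL5 (0.74) and ACSL1 (0.63) were called higher and DGAT1 (−0.94) lower, whereas ACSL3 (−0.28) passed the adjusted p alone and DGAT2 (−0.18) missed it. Of 21 cholesterol synthesis genes 15 were called lower and 0 higher in edgeR, with a median log2FC of −0.61 (0 higher at an unadjusted p under 0.05, and 0 in DESeq2). HMGCS1 (−1.92), LSS (−0.96) and CYP51A1 (−0.95) were among those called. Of 21 fatty acid oxidation genes tested, 12 were called lower and 0 higher in edgeR (1 higher at an unadjusted p under 0.05, and 0 called in DESeq2), with a median of −0.60. EHHADH (−1.45), SLC25A20 (−1.43), CPT1A (−1.39) and HSD17B4 (−1.04) fell most among those called. Lower levels were thus found for genes of synthesis and of oxidation alike, and the lists were not tested against each other. Without siDGk replicate 2 the calls were 7 in glycerolipid assembly and 10 in fatty acid oxidation, and without siCON replicate 2 those in glycerolipid assembly were 6.

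**Figure D5:**
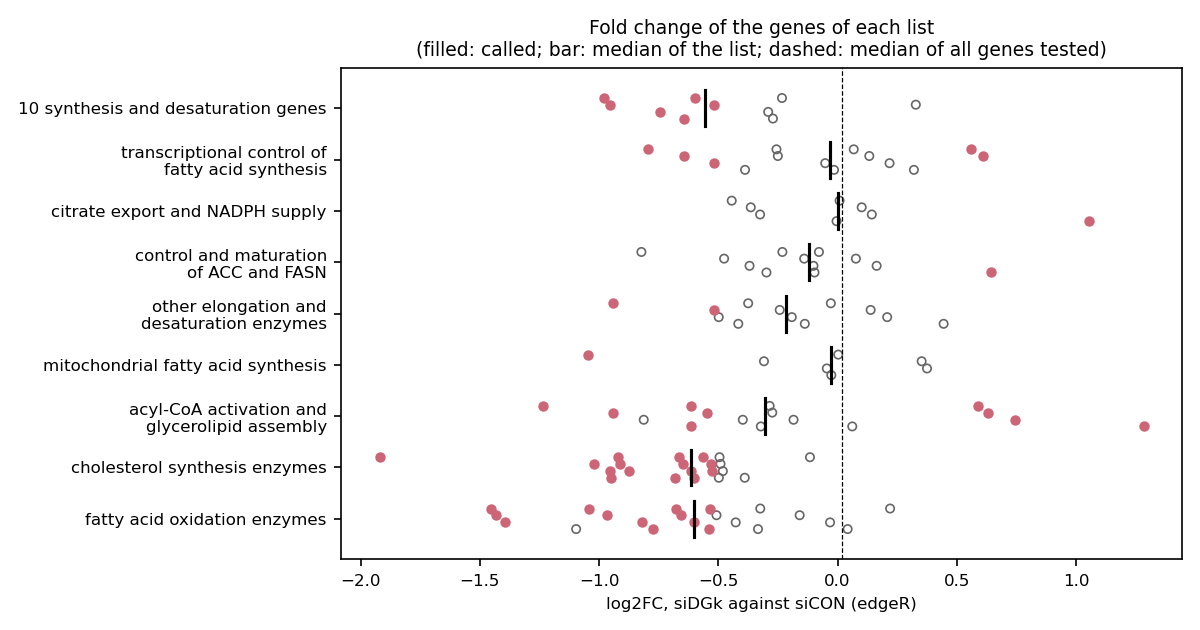
log2FC of each tested gene in siDGk against siCON cells, by list, with called genes filled, the median of the list as a bar and the median of all 14476 genes tested (0.02) as a dashed line. The medians of the 10 enzymes, of cholesterol synthesis and of fatty acid oxidation were −0.56, −0.61 and −0.60.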

How the data were processed

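Counts per gene were deposited by the authors as whole numbers without normalization. According to their paper, the authors took out structural RNA, adapter and spike-in reads, aligned the rest to GRCh38 (Gencode 27) with STAR 2.6.1, dropped low-complexity reads with PRINSEQ Lite 0.20.3, and counted genes with featureCounts 1.6.5 with a Phred cutoff of 10 added to its default settings, where strand is not used and multiply aligned reads do not count. Groups were taken from sample titles, since the treatment label names the control siRNA for all 6 libraries.

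Counts were compared in R 4.3.3 with edgeR 4.0.16 (filterByExpr, minimum count 10, TMM, robust quasi-likelihood fit, Benjamini-Hochberg over all genes tested). DESeq2 1.42.0, other normalizations and filters, a replicate block and each library left out were alternatives. Library totals ran from 10527216 to 21334876 counts. Replicates differed beyond counting noise, with 10.9 to 27.2 as chi-square over its degrees of freedom. Exon lengths came from Gencode 44 (98.9% of genes with a count matched). The fits were tested on simulated counts with changes larger than those found for the 10 genes with all libraries. Smaller changes were not covered by that test. Members and lists were chosen with earlier results of these data known. The genes named are the members, DGUOK, up to 4 called genes of each list with the largest change, a set of regulators and enzymes named whatever their values, and cell type markers. Some named genes are not reported here.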

Additional observations from a re-analysis of the deposited data

How the results depend on the processing

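In edgeR's test, 6 of the 10 genes were called lower in each alternative that kept all libraries and the fold threshold, 7 without that threshold, and 5 to 6 with 1 library left out, where the lower number came without siDGk replicate 2 and the loss was SCD. The median log2FC of the 10 genes stayed between −0.60 and −0.52 with 1 library left out. The number called higher was 0 in every alternative except the adjusted p alone, which gave 1, ELOVL5. ACACB changed sign, to 0.13, without siCON replicate 1, and ran from −0.56 to 0.13 with 1 library left out. The cause was not tested. Without a fold threshold the calls were 8 among the transcriptional regulators, 3 for citrate export and NADPH supply, 5 among the other elongation and desaturation enzymes and 2 in mitochondrial fatty acid synthesis. The loss of a threshold admits smaller changes by construction, and 19.7% of all genes tested then passed. DESeq2's shrunken fold changes gave 1 call among the other elongation and desaturation enzymes. With 1 library left out, calls ran from 3 to 5 among the regulators, from 1 to 2 for citrate export and NADPH supply, for the control of acetyl-CoA carboxylase and FASN and for the other elongation and desaturation enzymes, and from 0 to 1 in mitochondrial fatty acid synthesis. With 1 library left out, calls over all genes ran from 1704 to 1935. Each gene's deviations from its group mean were correlated between same-numbered siCON and siDGk libraries. The values were 0.0240, 0.0166 and −0.00224 for replicates 1, 2 and 3, which gave no sign of pairing by replicate number. With replicate number as a block 2077 genes were called, 6 of the 10 among them, and fatty acid oxidation had 13 calls. DGUOK stayed between −2.72 and −2.42 with 1 library left out. Likewise with 1 library left out, the calls in glycerolipid assembly ran from 6 to 9 (11 without a fold threshold), and the log2 ratio difference of ACACA to ACACB from −0.62 to −0.07.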
